A study of Mus musculus with 11 samples.

Results

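The smooth muscle contractile genes described here are 31 genes that encode the actin and myosin filaments of smooth muscle, the proteins that regulate and anchor them, and the channels, receptors and transcriptional coactivators that go with them. They were named by gene symbol for opposite tamoxifen changes with and without rapamycin, with earlier results of these arrays known. Counts and medians over the 31 genes therefore describe them and are no independent evidence. They are 31 of the 22180 genes on the array, and each is represented by the probe set of that symbol with the highest mean over the whole-stomach arrays. All 31 were measured, 30 of them by 1 probe set. The series holds 11 Affymetrix expression arrays of stomach RNA from adult C57Bl/6 mice. Its 9 whole-stomach arrays form 4 groups that cross tamoxifen with rapamycin, each given daily into the peritoneum. The combination group (2 arrays) received rapamycin at 0.6 mg per 20 g of mouse for 10 days and tamoxifen at 5 mg per 20 g for 3 days, and the rapamycin group (3 arrays) received the same rapamycin dose without tamoxifen. The tamoxifen group (2 arrays) received 5 mg per 20 g for 3 days, and the vehicle group (2 arrays) received sunflower oil. No group carries an engineered allele. The other 2 arrays hold isolated parietal cells and the stomach cells that remained after their removal. The labels call the whole-stomach arrays biological replicates without saying that each is 1 mouse, so p-values measure the spread between these samples.

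Smooth muscle of the stomach wall contracts when calcium activates myosin light chain kinase, which phosphorylates the myosin regulatory light chain and lets myosin pull on actin. The genes of this apparatus share a transcriptional programme in which serum response factor binds a DNA motif, the CArG box, together with its muscle coactivator myocardin. Tamoxifen at high dose is known to injure the gastric glands of mice and to deplete parietal cells, and rapamycin inhibits the kinase mTOR.

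All values are log2 expression values as the authors deposited them, and a change is a difference between group means on that scale. The array medians over all probe sets ran between 4.95 and 5.09 in whole stomach. Per array, the mean of the 31 genes was 8.81 and 8.64 in the combination group, 9.18, 9.15 and 9.09 in the rapamycin group, 8.92 and 8.90 in the tamoxifen group, and 8.82 and 8.77 in the vehicle group. The 3 rapamycin arrays were the highest of the 9. The content of other tissue also varied. The mean of 11 squamous forestomach genes was 8.52 and 8.74 in the combination group, 9.17, 7.80 and 4.76 in the rapamycin group, 9.03 and 4.15 in the tamoxifen group, and 4.55 and 4.11 in the vehicle group. The first combination array alone carried a striated muscle signal: Acta1, skeletal muscle actin, was at 9.15 on it and between 6.12 and 6.66 on the other 8.

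Promoter sequences are shown because the CArG box is the motif of the programme these genes share. RefSeq windows on mouse build GRCm38.p6, from 250 bases before each annotated start to 50 after it, were held for 26 of the 31 genes. The genes with no window here are Actg2, Myh11, Tagln, Myocd and Tgfb1i1. An exact CArG box, searched on both strands, lay in the windows of 2 of the 26 genes (7.69%), Ldb3 and Myl9, against 488 of 27025 genes with such a window (1.81%). With at most 1 of the 6 core bases changed, 8 of the 26 (30.8%) held one, against 3050 of the 27025 (11.3%). Those 8 were Acta2, Cacna1c, Hspb6, Jph2, Ldb3, Myl9, Pdlim3 and Synm. A match is a description of the letters in the window. The 250 bases before the start of Acta2, smooth muscle alpha actin, lie on the minus strand at chr19:34255374-34255623. Those of Des, which encodes desmin, lie on the plus strand at chr1:75360042-75360291. Capitals mark matches to the CArG box with at most 1 core base changed.
Acta2: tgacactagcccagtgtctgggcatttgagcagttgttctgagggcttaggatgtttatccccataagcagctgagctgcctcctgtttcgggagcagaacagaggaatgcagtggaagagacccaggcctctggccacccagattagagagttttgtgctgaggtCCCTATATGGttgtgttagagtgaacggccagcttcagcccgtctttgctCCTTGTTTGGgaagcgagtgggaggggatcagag
Des: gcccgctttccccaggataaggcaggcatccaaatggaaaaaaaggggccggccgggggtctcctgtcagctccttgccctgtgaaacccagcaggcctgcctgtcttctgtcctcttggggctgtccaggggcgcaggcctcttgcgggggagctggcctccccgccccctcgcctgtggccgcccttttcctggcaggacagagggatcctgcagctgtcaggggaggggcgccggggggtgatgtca
Shorter windows show the matches of Myl9, the myosin regulatory light chain, at chr2:156775288-156775327 and chr2:156775350-156775389 on the plus strand. That of Ldb3, a Z-line protein, is at chr14:34588692-34588731 on the minus strand, and that of Jph2, junctophilin, at chr2:163398042-163398081 on the minus strand. The first Myl9 match and the Ldb3 match are exact.
Myl9 first: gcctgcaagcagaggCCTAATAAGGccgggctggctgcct
Myl9 second: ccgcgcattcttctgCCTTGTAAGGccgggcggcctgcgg
Ldb3: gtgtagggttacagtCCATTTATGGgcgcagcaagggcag
Jph2: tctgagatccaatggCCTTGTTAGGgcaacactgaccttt
The values of these genes are given below by role, and no relation between a match and a change was tested.

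The first question was what tamoxifen did in stomachs that also received rapamycin. In the combination group 2 of the 31 genes fell and none rose (limma, Benjamini-Hochberg adjusted p under 0.05 over all genes), where 1.32% of all 22180 genes fell and 1.13% rose. The 2 were Actg2, the gamma actin of visceral smooth muscle, and Des, whose product links the contractile apparatus to the cell membrane. The change was below 0 for 30 of the 31 genes (52.4% of all genes), and for 27 of them every combination array was below every rapamycin array (20.4% of all genes). In 16 the value was lower at an unadjusted p under 0.05 (7.41% of all genes). The median change of the 31 genes was -0.40, with a range of -0.93 to 0.04, and the median over all genes was -0.01. In whole stomach fewer muscle cells and less of each RNA per muscle cell cannot be told apart.

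Actg2 was at 10.31 and 10.23 in the combination group, 11.25, 11.18 and 11.18 in the rapamycin group, 11.06 and 11.00 in the tamoxifen group, and 11.11 and 10.78 in the vehicle group. Both combination arrays were the lowest of the 9, the tamoxifen arrays lay between the 2 vehicle arrays, and the rapamycin arrays were the highest. The mean was 10.27 ± 0.06 (SD, n = 2) in the combination group and 11.20 ± 0.04 (SD, n = 3) in the rapamycin group. Actg2 fell by 0.93 ± 0.13 (limma SE) on the log2 scale, 1.91-fold, with a limma adjusted p of 0.00931. Des was at 10.25 and 9.89 in the combination group, 11.05, 10.95 and 10.94 in the rapamycin group, 10.54 and 10.98 in the tamoxifen group, and 10.76 on both vehicle arrays. Again both combination arrays were the lowest of the 9. Des fell by 0.91 ± 0.17, 1.88-fold, with a limma adjusted p of 0.0278. The Des call was lost, and the Actg2 call kept, with replicate number as a block (limma adjusted p of 0.104 and 0.0393). Without rapamycin array 2, combination array 1 or combination array 2 neither gene was called, and without rapamycin array 1 or rapamycin array 3 only 1 of the 31 genes was called. The changes over all alternatives stayed between -0.97 and -0.89 for Actg2 and between -1.09 and -0.73 for Des.

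**Figure D1:**
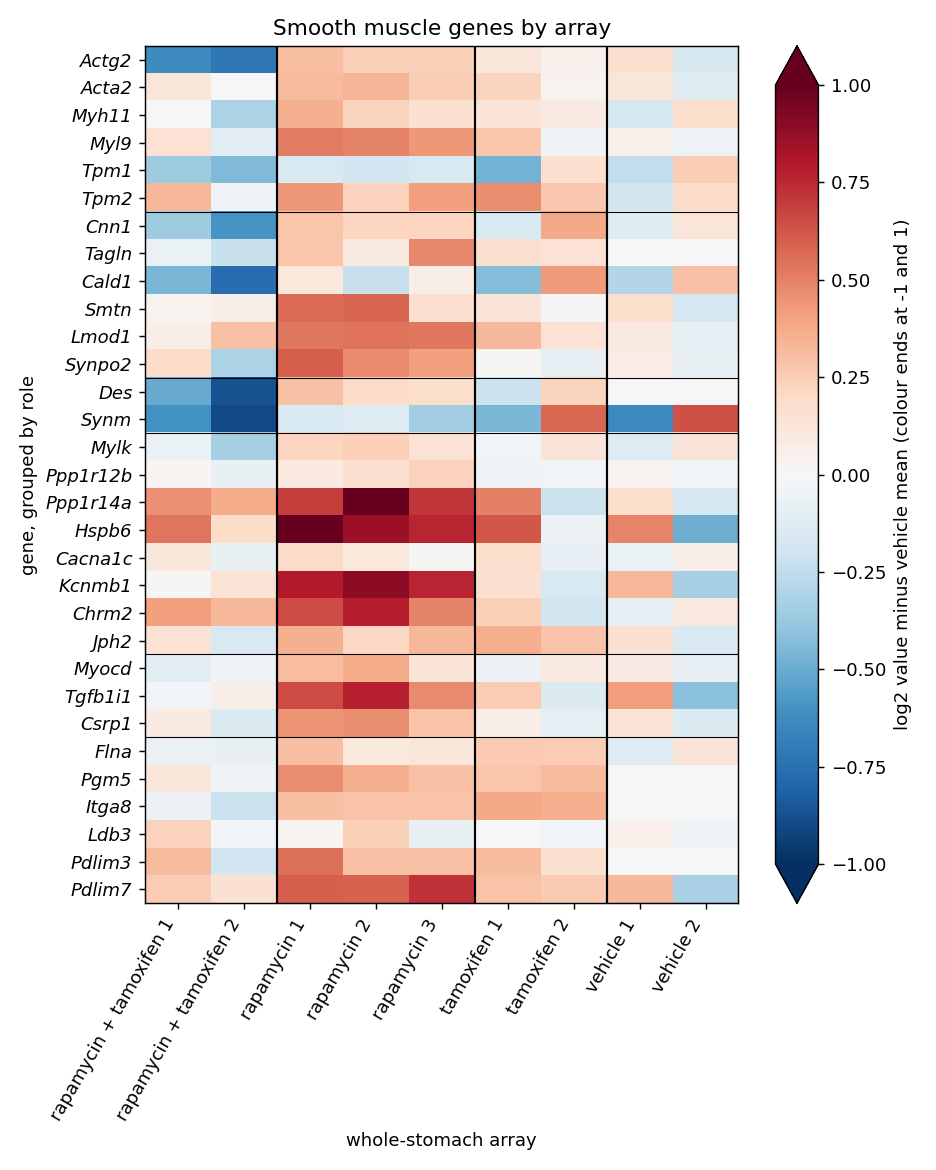
Colour gives each gene's log2 value on each of the 9 whole-stomach arrays minus that gene's vehicle mean, with genes in rows by role and arrays in columns by group; colour ends at -1 and 1. The 3 rapamycin columns hold the highest mean of the 31 genes (9.18, 9.15 and 9.09) and the second combination column the lowest (8.64).

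Among the genes of the filaments themselves, all 6 changes were below 0, with a median of -0.32, and Actg2 was the 1 gene that passed the test. Myh11, the smooth muscle myosin heavy chain, was at 11.29 and 10.98 in the combination group, 11.65, 11.52 and 11.44 in the rapamycin group, 11.42 and 11.38 in the tamoxifen group, and 11.11 and 11.47 in the vehicle group. Its groups with rapamycin did not overlap, and its tamoxifen arrays lay between the 2 vehicle arrays (change with tamoxifen under rapamycin -0.40 ± 0.16, limma adjusted p 0.288). Acta2 was at 12.58 and 12.46 in the combination group, 12.77, 12.80 and 12.70 in the rapamycin group, 12.68 and 12.49 in the tamoxifen group, and 12.57 and 12.34 in the vehicle group. The combination arrays of Acta2 lay among the vehicle and tamoxifen arrays, below all rapamycin arrays. Its change of -0.23 had a 95% interval of -0.53 to 0.06, so the alpha and gamma smooth muscle actins gave values of different size, a difference between genes that was not tested. For Myl9 the change was -0.46 ± 0.14, with combination arrays at 11.21 and 10.97 and rapamycin arrays at 11.58, 11.57 and 11.50. The tropomyosins Tpm1 and Tpm2, which lie along actin filaments, gave -0.23 and -0.21.

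The regulators of the thin filament were 6 genes, all with a change below 0 and a median of -0.49, and none passed the test. Cnn1, calponin, which binds actin and inhibits myosin ATPase, was at 11.09 and 10.85 in the combination group, 11.72, 11.66 and 11.65 in the rapamycin group, 11.29 and 11.82 in the tamoxifen group, and 11.32 and 11.57 in the vehicle group. Both combination arrays were the lowest of the 9 (change -0.70 ± 0.18, limma adjusted p 0.089). Tagln, transgelin, an actin-binding protein, was at 10.38 and 10.22 in the combination group, 10.72, 10.53 and 10.93 in the rapamycin group, 10.60 and 10.59 in the tamoxifen group, and 10.45 on both vehicle arrays. Here too the combination arrays were lowest, and the tamoxifen arrays lay above the vehicle arrays. Lmod1, leiomodin, which nucleates actin filaments, was at 7.54 and 7.76 in the combination group, 7.99, 8.01 and 7.99 in the rapamycin group, 7.79 and 7.61 in the tamoxifen group, and 7.56 and 7.38 in the vehicle group. Its combination arrays were below all rapamycin arrays and overlapped those of tamoxifen and vehicle. The changes of the remaining regulators were -0.59 for Cald1, caldesmon, -0.56 for Synpo2, which bundles actin, and -0.39 for Smtn, smoothelin. Cald1 values are those of a gene also expressed outside muscle.

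Of the intermediate filament pair, Synm, which encodes the desmin partner synemin, did not follow Des closely. Synm was at 7.25 and 6.96 in the combination group, 7.71, 7.74 and 7.52 in the rapamycin group, 7.40 and 8.43 in the tamoxifen group, and 7.22 and 8.50 in the vehicle group. Its second tamoxifen array and second vehicle array stood apart from all others, and the standard error of its change (-0.55 ± 0.38) was the largest of the 31.

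Genes that control contraction and excitation were 8 in number, with changes between -0.74 and -0.08 and a median of -0.35, and none passed the test. Kcnmb1, the beta subunit of the large-conductance calcium-activated potassium channel, was at 8.13 and 8.25 in the combination group, 8.91, 9.01 and 8.88 in the rapamycin group, 8.27 and 7.97 in the tamoxifen group, and 8.45 and 7.79 in the vehicle group. The rapamycin arrays were above all others, and the other 3 groups overlapped (change -0.74 ± 0.20, limma adjusted p 0.106). Mylk, myosin light chain kinase, was at 7.21 and 6.94 in the combination group, 7.48, 7.51 and 7.41 in the rapamycin group, 7.24 and 7.40 in the tamoxifen group, and 7.14 and 7.40 in the vehicle group. The combination and rapamycin arrays of Mylk did not overlap. The change was -0.52 for the small heat shock protein gene Hspb6, -0.40 for Ppp1r14a, an inhibitor of myosin phosphatase, and -0.19 for Ppp1r12b, a myosin phosphatase subunit. It was -0.30 for Jph2, which joins the plasma membrane to the calcium store, -0.27 for the muscarinic receptor gene Chrm2, and -0.08 for Cacna1c, the L-type calcium channel, whose groups overlapped.

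Myocd, the coactivator myocardin, was at 6.89 and 6.96 in the combination group, 7.30, 7.37 and 7.13 in the rapamycin group, 6.94 and 7.09 in the tamoxifen group, and 7.08 and 6.92 in the vehicle group. Its combination arrays lay below the rapamycin arrays, and the first of them was the lowest of the 9 (change -0.35 ± 0.13, limma adjusted p 0.275). The change was -0.62 for Tgfb1i1, which encodes the focal adhesion protein and coactivator Hic-5, and -0.42 for Csrp1, a LIM protein. Of 6 adhesion and anchoring genes, 5 had changes below 0 (median -0.32) and none passed the test. Itga8, the alpha 8 integrin subunit, was at 5.80 and 5.64 in the combination group, 6.16, 6.14 and 6.14 in the rapamycin group, 6.23 and 6.21 in the tamoxifen group, and 5.85 and 5.86 in the vehicle group. Its 4 groups formed 2 separate levels, with rapamycin and tamoxifen arrays above all combination and vehicle arrays. Pgm5, a phosphoglucomutase relative found at adhesion sites, was at 9.17 and 9.02 in the combination group, 9.52, 9.41 and 9.34 in the rapamycin group, 9.33 and 9.37 in the tamoxifen group, and 9.05 and 9.06 in the vehicle group. Its rapamycin and tamoxifen arrays lay above all combination and vehicle arrays, and the combination arrays overlapped those of vehicle. The change was -0.24 for Flna, the actin cross-linker filamin A, -0.43 for Pdlim7 and -0.31 for Pdlim3, both PDZ and LIM domain proteins of actin structures. Ldb3 had the 1 value above 0, at 0.04, and its groups overlapped. It is also a striated muscle gene, as is Pdlim3, and both were higher on the first combination array (6.17 and 10.84), which carried the Acta1 signal, than on the second (5.91 and 10.33). The part of that signal in these values was not tested.

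**Figure D2:**
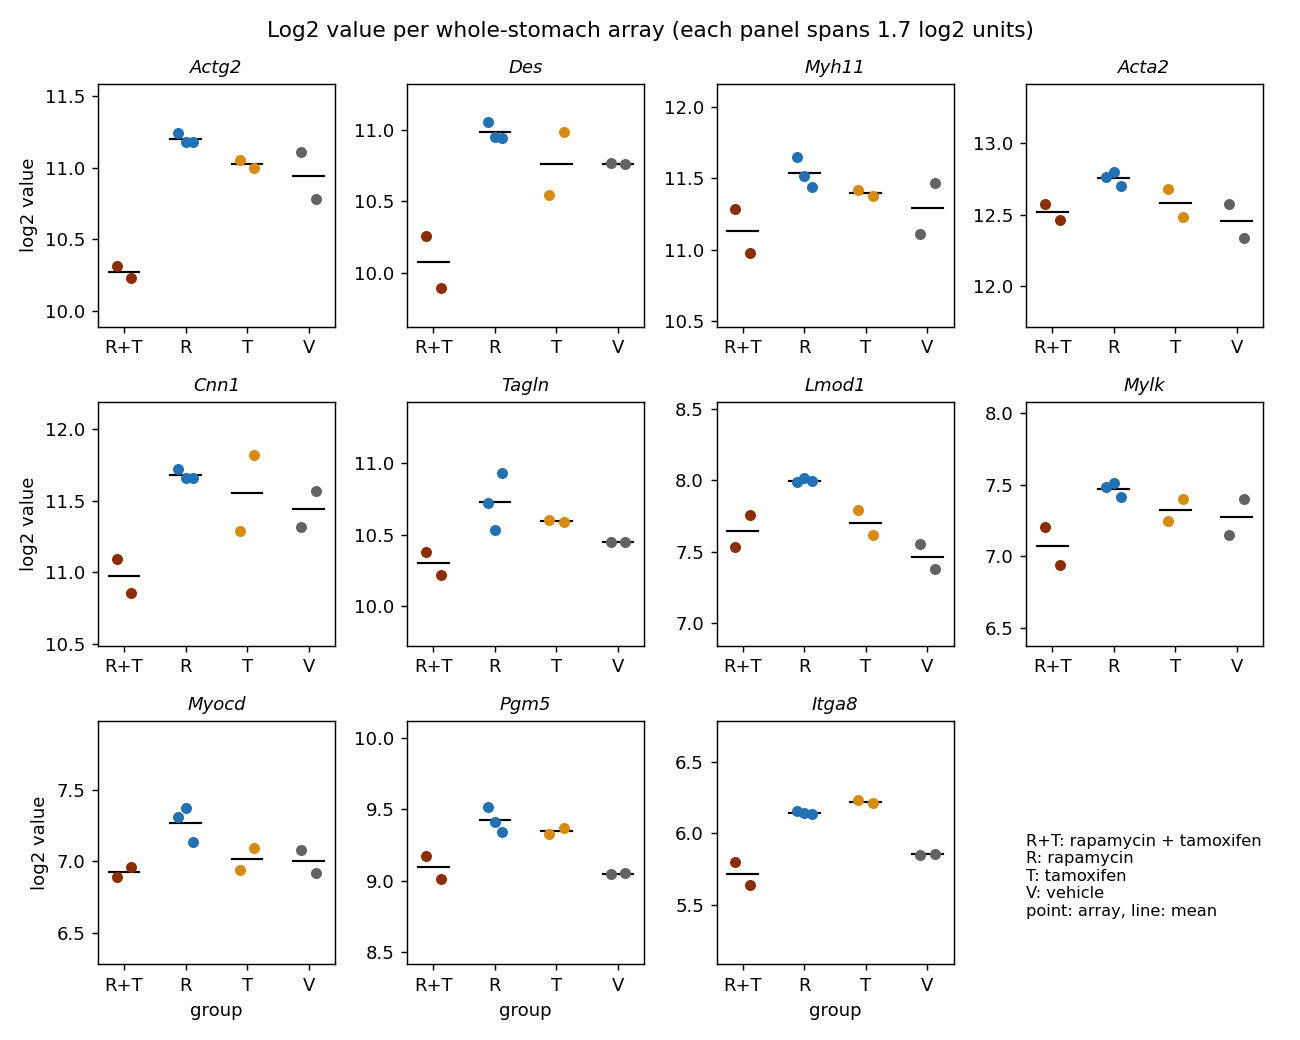
Each panel gives 1 gene's log2 value on every whole-stomach array (points) and the group mean (line), for combination (R+T), rapamycin (R), tamoxifen (T) and vehicle (V), with every y axis spanning the same range. Both combination points of Actg2 (10.31 and 10.23) lie below all others, while the 4 groups of Itga8 form 2 levels.

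Without rapamycin, no gene of the 31 passed the test for tamoxifen against vehicle (limma), where 1.72% of all genes did, and 1 was past an unadjusted p of 0.05 (10.9% of all genes). That gene was Itga8, at 0.37 ± 0.13 with a limma adjusted p of 0.271. The change was above 0 for 24 of the 31 genes (46.4% of all genes), with a median of 0.08 against -0.02 over all genes and a range of -0.15 to 0.37. In 8 genes every tamoxifen array was above every vehicle array (13.4% of all genes), and in none was every tamoxifen array below (13.9% of all genes). The value for Actg2 was 0.08 ± 0.15, with a 95% interval of -0.25 to 0.41, and the value for Des was 0.00 with an interval of -0.41 to 0.42. These intervals do not reach the decreases of the same genes under rapamycin, for which the 2 genes were singled out. The difference itself was tested as the interaction below, and neither gene passed (limma adjusted p 0.9999). For Acta2 the value was 0.13 ± 0.14 and for Tpm2 0.37 ± 0.19. The split of 24 above and 7 below 0 became 18 and 13 after repeated quantile normalization and without vehicle array 2, and 19 and 12 without tamoxifen array 1. The median was 0.15 without vehicle array 1 and 0.16 without tamoxifen array 2. Signs were followed gene by gene only for the genes set out with the most detail. Among those, the sign of this change turned under at least 1 alternative for Actg2, Des, Cnn1, Myh11, Mylk and Myocd. The splits above show that some of the other genes turned as well.

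**Figure D3:**
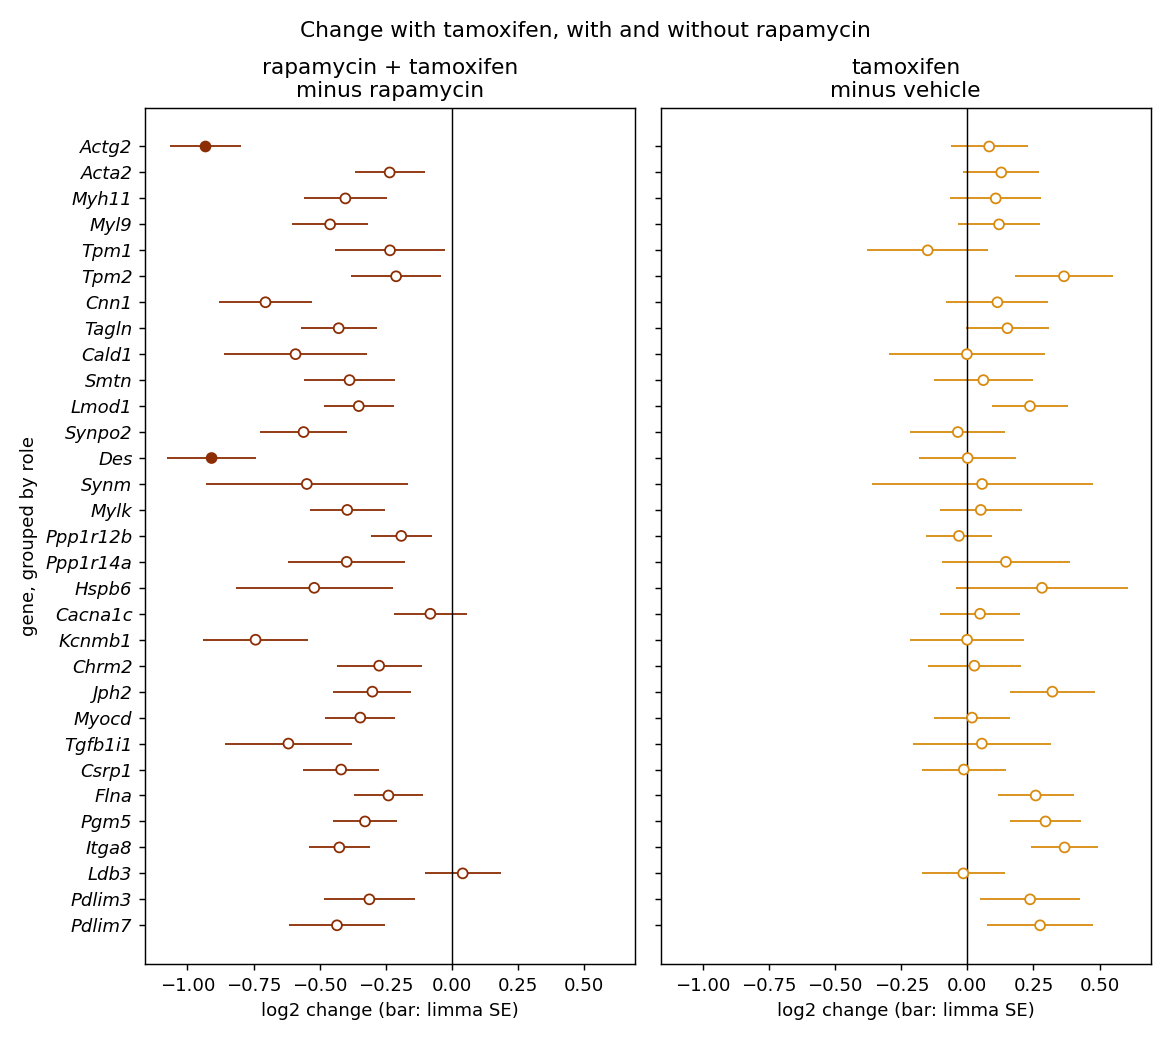
Points give the log2 change with tamoxifen for each of the 31 genes and bars its limma standard error, with the combination minus rapamycin on the left and tamoxifen minus vehicle on the right. Filled points mark the 2 genes that passed the test, Actg2 (-0.93) and Des (-0.91), and the left panel has 1 point above 0, Ldb3 (0.04).

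The difference between these 2 tamoxifen changes was tested as an interaction, for which the rapamycin and vehicle arrays both serve as baselines. No gene of the 31 passed the test, and neither did any of the 22180 genes (0%, limma). An unadjusted p under 0.05 was reached by 627 genes (2.83%), among them 13 of the 31, each with a value below 0, where 1.56% of all genes reached it in that direction. The interaction was below 0 for 30 of the 31 genes (51.8% of all genes), with a median of -0.58 against -0.01 over all genes. Most genes of several other lists also had interaction values below 0: all 12 fibroblast genes (median -0.49), all 10 endothelial genes (-0.32), all 8 pericyte and vascular mural genes (-0.23), all 7 adipocyte genes (-0.70), all 11 squamous genes (-0.94) and 14 of 15 genes of the non-muscle actin cytoskeleton (-0.17). Below 0 too were 14 of 16 genes of the dystrophin complex and adhesion (-0.20) and 12 of 13 parietal genes (-0.20). So were 15 of 24 genes of contraction signalling and calcium (-0.11) and 10 of 13 enteric neuron and glia genes (-0.08). Values above 0 were held by all 6 chief cell genes (median 0.60) and all 4 pit mucous genes (0.04). They were also held by 15 of 16 striated muscle genes (0.50) and 4 of 5 mesothelial genes (0.53). Of 15 regulators of myocardin and serum response factor 10 were above 0 (0.05). Fibroblast genes had a median tamoxifen change of -0.25 with rapamycin and 0.45 without it, where 10 of 12 were above 0. Whether the muscle genes differed from these lists was not tested. Among the muscle genes the interaction was -1.01 ± 0.20 for Actg2 (unadjusted p 6.38e-04), -0.79 ± 0.17 for Itga8 (0.00123), and -0.91 ± 0.25 for Des (0.00528). For Pgm5, Cnn1 and Lmod1 it was -0.62 ± 0.18, -0.82 ± 0.26 and -0.59 ± 0.19. The limma adjusted p of all of them was 0.9999, so at this number of arrays a different response of any single gene was not shown. The sign ran above 0 without and below 0 with rapamycin in 24 of the 31 genes (16.5% of all genes), and in 18 of them after repeated quantile normalization and 18 without vehicle array 2. In 6 of the 24, Tagln, Lmod1, Flna, Pgm5, Itga8 and Jph2, the arrays overlapped in neither comparison (0.807% of all genes). The 31 genes were named for such opposite changes with results of these arrays known, so these counts describe the genes and are no independent evidence.

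The rapamycin group, from which the combination change is measured, was compared with vehicle. No gene of the 31 passed the test for rapamycin against vehicle (limma), where 0.0496% of all genes did, and 14 were higher at an unadjusted p under 0.05 (4.31% of all genes). The change was above 0 in 28 of the 31 (46.8% of all genes). In 23 of the 31 every rapamycin array was above every vehicle array (12.7% of all genes), and the median change was 0.30 against -0.02 over all genes. The highest values were 0.88 ± 0.30 for Hspb6, 0.81 ± 0.20 for Kcnmb1, 0.81 ± 0.22 for Ppp1r14a and 0.65 ± 0.16 for Chrm2. These are 4 of the 8 contraction control genes, and the values were 0.30 for Jph2, 0.20 for Mylk, 0.17 for Ppp1r12b and 0.10 for Cacna1c. The size and order of the highest values depended on the second vehicle array. Without it the change was 0.39 for Hspb6, 0.48 for Kcnmb1, 0.64 for Ppp1r14a, 0.74 for Chrm2, 0.31 for Pdlim7 and 0.21 for Tgfb1i1. With all arrays Pdlim7 was at 0.64 and Tgfb1i1 at 0.63. Chrm2 was at 8.56 and 8.48 in the combination group, 8.80, 8.93 and 8.65 in the rapamycin group, 8.38 and 7.97 in the tamoxifen group, and 8.05 and 8.25 in the vehicle group, so its rapamycin arrays were above all others. Lmod1 gave 0.53 ± 0.13, Myl9 0.48 ± 0.14 and Acta2 0.30 ± 0.13. The smallest limma adjusted p among the 31 was 0.333. All 3 rapamycin arrays were above all 6 other whole-stomach arrays in 15 of the 31 genes (4.32% of all genes). This comparison and that of the combination with rapamycin share the rapamycin arrays, and their values are not independent of each other.

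The combination group was also compared with vehicle. None of the 31 passed the test (limma), where 1.15% of all genes did, and 3 were lower at an unadjusted p under 0.05 (7.41% of all genes): Actg2, Des and Cnn1. Actg2 gave -0.67 (limma adjusted p 0.0789), Des -0.69 (0.146) and Cnn1 -0.47 (0.332). Every combination array was below every vehicle array in 7 of the 31 genes (24.8% of all genes). Both counts of lower genes are near the share over all genes. The median over the 31 genes was -0.0026 against -0.03 over all genes. Myl9 (0.02), Kcnmb1 (0.07), Acta2 (0.06) and Tgfb1i1 (0.02) lay close to vehicle, and Ppp1r14a (0.42) and Chrm2 (0.37) lay above it with no overlap of arrays (2 of 31, and 19.3% of all genes). Synm (-0.76) lay below the values of Actg2, Des and Cnn1, Cald1 (-0.61) among them and Tpm1 (-0.40) above them. The vehicle arrays differed from each other in Synm, Cald1 and Tpm1. Against tamoxifen, none of the 31 and none of all genes (0%, limma) passed the test, and 5 of the 31 were lower at an unadjusted p under 0.05 (3.31% of all genes). Actg2 gave -0.76 there (limma adjusted p 0.781) and Des -0.69.

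**Figure D4:**
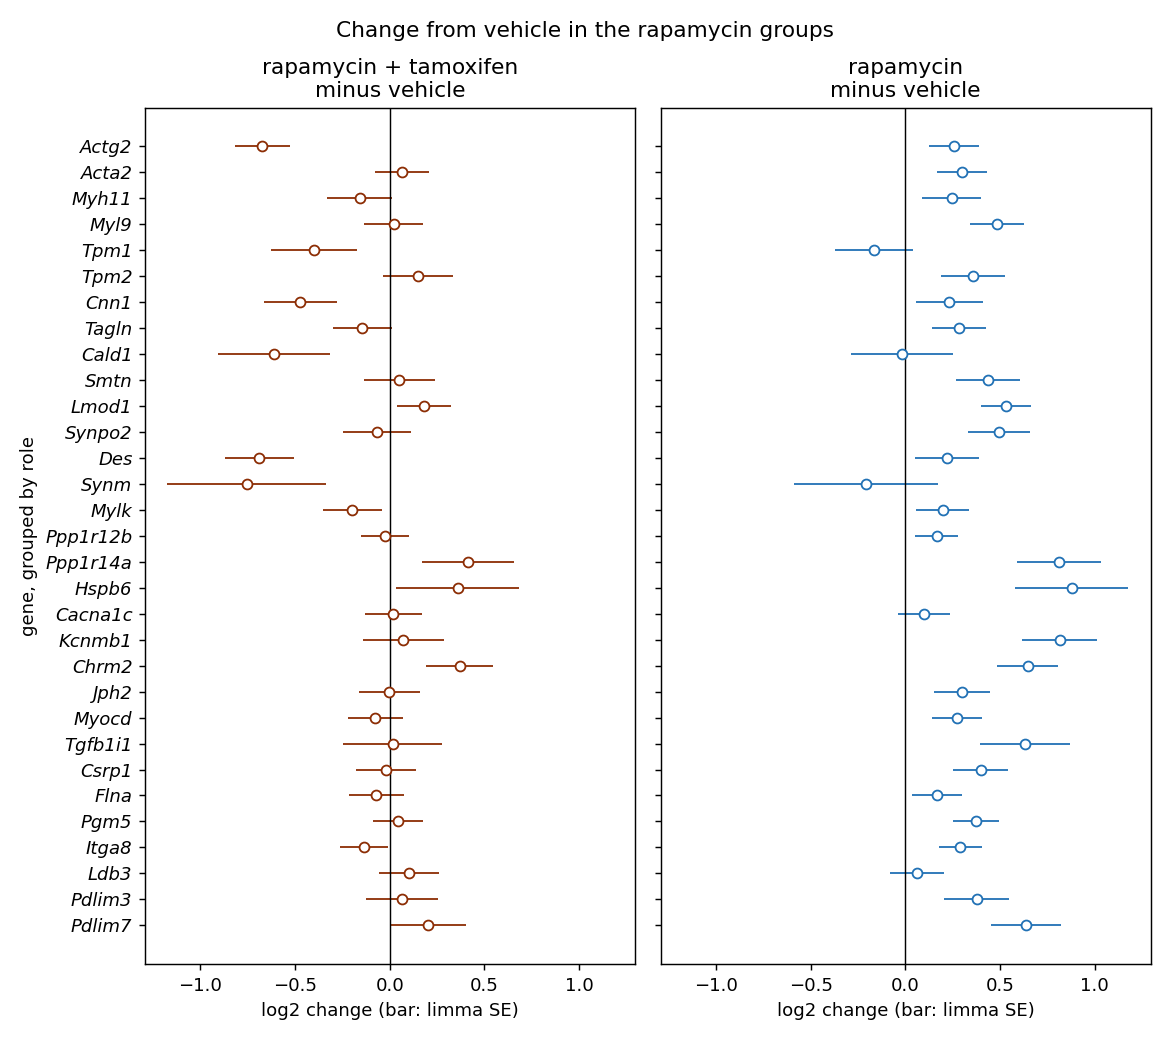
Points give the log2 change from vehicle of each of the 31 genes and bars its limma standard error, for the combination group on the left and the rapamycin group on the right. On the right 28 of 31 points lie above 0, with a median of 0.30; on the left the median is -0.0026 and Actg2 (-0.67) and Des (-0.69) lie among the lowest.

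A few genes varied between arrays of 1 group more than between treatments. Synm, Tpm1 and Cald1 were highest on the second tamoxifen and second vehicle arrays. Tpm1 was at 10.43 on the second tamoxifen array and 10.51 on the second vehicle array, against 9.79 on the first tamoxifen array and 10.01 on the first vehicle array. Cald1 was at 9.53 on the second tamoxifen array and 9.39 on the second vehicle array, against 8.67 on the first tamoxifen array and 8.81 on the first vehicle array. Hspb6 ran the other way, at 8.41 on the second tamoxifen array and 7.97 on the second vehicle array, against 9.09 on the first tamoxifen array and 8.96 on the first vehicle array. Over the 22180 genes, each by 1 probe set, the second tamoxifen and second vehicle arrays correlated at 0.9885. This was above the 2 tamoxifen arrays with each other (0.9715) and the 2 vehicle arrays with each other (0.981). The labels give no batch.

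Across the 9 whole-stomach arrays, which share treatment groups and tissue content, the 31 genes varied together to differing degrees. Pearson's r of each gene with the mean of the other 30 had a median of 0.75, and was 0.92 for Myl9, 0.91 for Synpo2 and 0.90 for Pgm5. It was lowest for Tpm1 (0.07), Synm (0.11), Ldb3 (0.16) and Cald1 (0.35). Over all 465 pairs the median r was 0.54. Of all other genes, the 10 most like the mean of the 31 were Timp3 (r 0.96), Nsg1, Cap2, Mrvi1, Glt8d2, Scd1, Bpgm, Slc8a1, Tecrl and Mest (0.91). Tecrl was at a low level, between 2.67 and 3.14 on these arrays and far below the array medians. Glt8d2, between 3.95 and 4.84, also lay below them. Mrvi1 is a substrate of cyclic GMP kinase in smooth muscle, Slc8a1 the sodium-calcium exchanger, and Timp3 an inhibitor of matrix proteases. Scd1, a fatty acid desaturase, had the largest changes of the 10, at -2.70 ± 0.46 for the combination against rapamycin (limma adjusted p 0.0199).

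The wider contraction machinery was described from lists chosen by function. Of 24 genes of contraction signalling and calcium handling, 17 had a change below 0 for the combination against rapamycin, with a median of -0.09, and none passed the test. Casq2, the calcium-binding protein of the store, was at 6.61 and 6.26 in the combination group, 6.90, 6.93 and 6.81 in the rapamycin group, 6.42 and 6.17 in the tamoxifen group, and 6.16 and 5.90 in the vehicle group. Its rapamycin arrays were above all others, like those of Pln, Kcnma1 and Mrvi1, the other genes of the list with the smallest interaction p. Over the whole list the change of rapamycin against vehicle had a median of -0.04, with 10 of 24 genes above 0. Pln, which restrains the calcium pump of the store, had a change of -0.51 for the combination against rapamycin, and Kcnma1, the pore-forming partner of Kcnmb1, one of -0.46. The median was -0.14 over 16 genes of the dystrophin complex and adhesion, -0.03 over 15 regulators of myocardin and serum response factor, and 0.09 over 15 genes of the non-muscle actin cytoskeleton, with none passing the test in any of the 3 lists.

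Markers of other cell types were set beside the smooth muscle values, and their part in them was not tested. For the combination against rapamycin, all 10 endothelial genes (median -0.48) and all 8 pericyte and vascular mural genes (median -0.31) had changes below 0, and none passed the test. The endothelial mean was 6.42 and 6.66 in the combination group and between 6.88 and 7.18 in the rapamycin group. The mural mean was 7.10 and 7.17 in the combination group and between 7.27 and 7.56 in the rapamycin group. Of 12 fibroblast genes 7 were below 0 (median -0.25), and of 13 enteric neuron and glia genes 10 were (median -0.26). The parietal mean was 9.18 and 9.38 in the combination group and between 10.38 and 10.60 in the rapamycin group, and it was 9.14 and 9.72 in the tamoxifen group against 10.29 and 10.50 in the vehicle group. Of the 13 parietal genes 6 fell in the combination group against rapamycin. For the mean of the 31 muscle genes without rapamycin, the tamoxifen arrays (8.92 and 8.90) lay above the vehicle arrays (8.82 and 8.77). Of 4 genes of interstitial cells of Cajal 2 were below 0 (median -0.08), and Kit, a receptor of these cells and of mast cells, was the 1 that passed the test. Kit fell by 1.76 in the combination group against rapamycin (limma adjusted p 0.00353) and by 1.34 in the tamoxifen group against vehicle (0.0169). Of 7 adipocyte genes 6 were below 0 for the combination against rapamycin (median -0.68, 1 fell), and 6 were above 0 for rapamycin against vehicle (median 0.74). Of 5 mesothelial genes 4 were above 0 for the combination against rapamycin (median 0.62). All 11 squamous forestomach genes had changes above 0 in that comparison (median 1.31), with large spread between arrays. With the squamous mean as a covariate the median change of the 31 muscle genes was -0.40. In that fit 2 of them were called, and 442 of all genes.

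**Figure D5:**
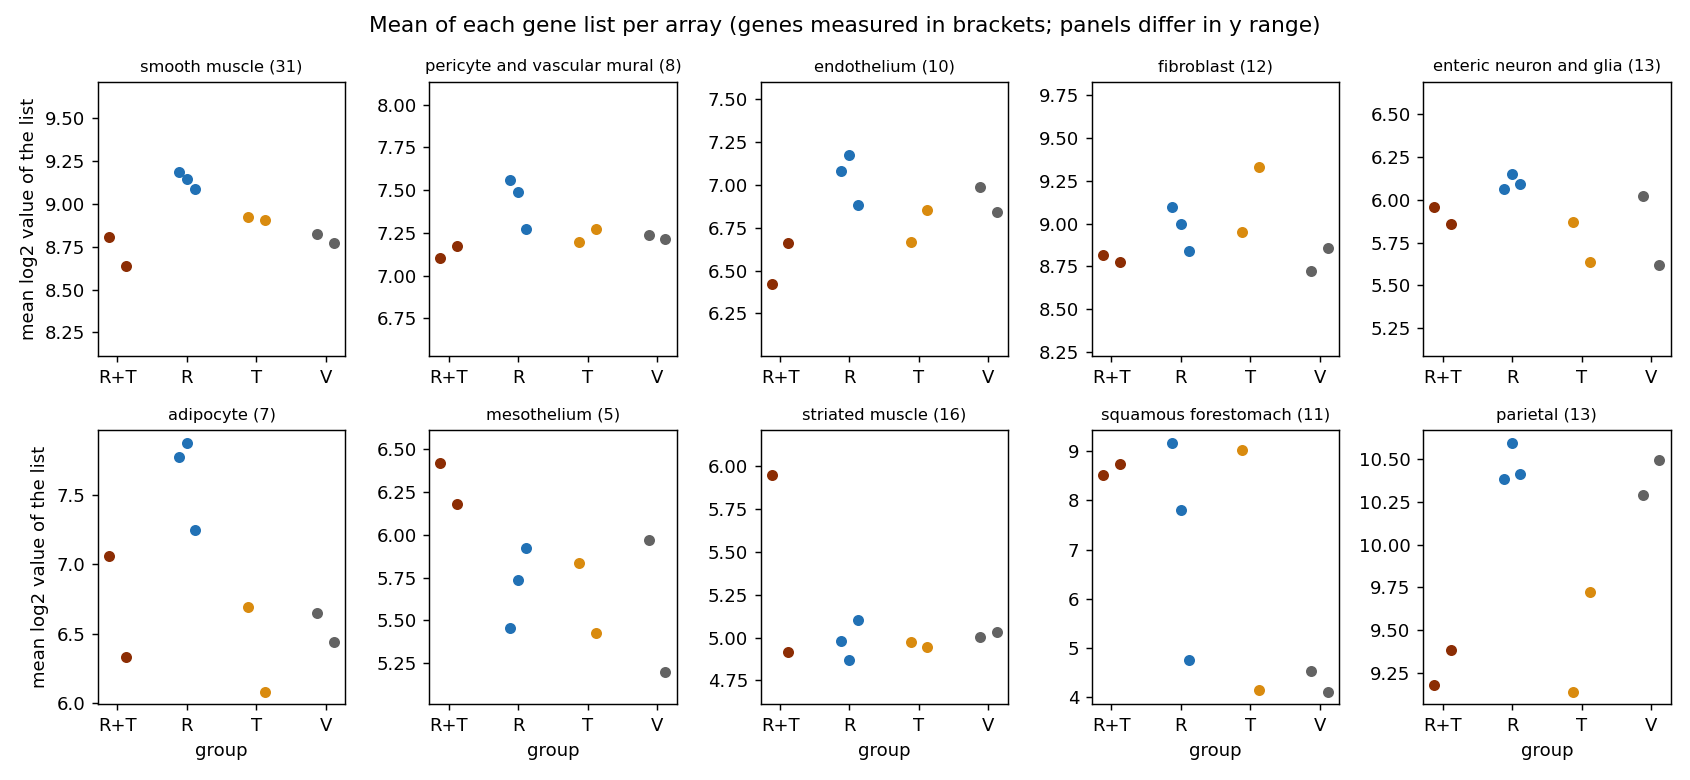
Points give the mean log2 value of each gene list on each whole-stomach array, by group as combination (R+T), rapamycin (R), tamoxifen (T) and vehicle (V), with the number of genes in brackets and y ranges that differ between panels. The smooth muscle, mural and endothelial means have all rapamycin points above all combination points, and the first combination array stands apart in striated muscle (5.95).

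The level of the genes in the separated cells was given by 1 array each, with no test. Medians differed between the 2 fraction arrays and whole stomach (3.67 and 3.68 against 4.95 to 5.09), so the fractions are compared with each other only. The mean of the 31 genes was 4.11 in parietal cells and 4.06 in the remaining cells, where the median gene of the array was at 3.97 and 3.99. No gene of the 31 differed by 2 log2 units or more, where 3.35% of all genes did. The largest difference was that of Pdlim7, at 6.52 in parietal cells and 5.29 in the remaining cells. Csrp1 was at 7.22 in parietal cells and 8.24 in the remaining cells, and Tpm1 at 8.30 in parietal cells and 7.83 in the remaining cells. These 3 genes are also expressed outside muscle. Actg2 was at 4.21 in parietal cells and 3.32 in the remaining cells, and Des at 3.70 in parietal cells and 3.28 in the remaining cells.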

How the data were processed

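The authors deposited log2 expression values per probe set, made with Partek and RMA per the submitters' processing notes; the version and settings were not stated. Of 41345 probe sets, 23521 have 1 gene symbol, 1814 several and 16010 none, and 23328 of the single-symbol ones matched RefSeq by gene ID. The probe set with the highest mean over the 9 whole-stomach arrays represented each of 22180 genes. One model with a mean per group and a shared spread was fitted with limma 3.58.1 in R 4.3.3 (lmFit and eBayes, 5 residual degrees of freedom), and p-values were Benjamini-Hochberg adjusted over all genes with a threshold of 0.05. The script was tested on simulated data with independent normal noise, in which 200 of 22180 genes were changed. A change of 1 log2 unit was recovered in 53.5% for tamoxifen against vehicle and 73% for the combination against rapamycin. For the interaction 1 log2 unit was recovered in 0% and 2 log2 units in 93.5%. The absence of interaction calls therefore says little about interactions near 1 log2 unit. The number of arrays limits the precision.

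The members and all gene lists were chosen with earlier results of these data known. Named were all 31 members, with values per array for 8 core genes, for the called ones and for the 6 with the smallest interaction p, up to 4 genes per other list by interaction p, and the 10 genes most like the member mean; other genes and values were named after their values were seen. Deviations of arrays with the same replicate number correlated at 0.56 for vehicle with tamoxifen. They correlated at 0.41 for tamoxifen array 1 with rapamycin array 1, and at -0.11 to 0.04 otherwise. Where each group is a pair of arrays, deviations mirror each other, so both replicate numbers give the same value and are no separate checks. The main fit did not take the numbers as pairs, although vehicle and tamoxifen arrays of the same number varied alike. The cause was not tested. Alternatives were another normalization, centring, a filter on dim genes, averaged probe sets, a trended robust prior, a replicate block, a squamous covariate, only the groups compared, each array left out, and, chosen after seeing the data, tamoxifen array 1 and rapamycin array 3 left out.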

Additional observations from a re-analysis of the deposited data

Results flagged for a closer look

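In 6 of the 31 genes (0.807% of all genes) every tamoxifen array lay above every vehicle array, and every combination array lay below every rapamycin array. The interaction of these changes was tested with limma, and none of the 6 passed (adjusted p 0.9999 for each, as for Actg2 and Des). It was -0.79 for Itga8 (unadjusted p 0.00123), -0.62 for Pgm5 (0.00727), -0.62 for Jph2 (0.0197), -0.59 for Lmod1 (0.0147), -0.58 for Tagln (0.0238) and -0.50 for Flna (0.0316). The 6 genes were picked by that separation on the same arrays, from members named for opposite changes. Their interaction values and unadjusted p-values are therefore low by selection and are no independent evidence. Jph2 was at 6.70 and 6.41 in the combination group, 6.92, 6.76 and 6.89 in the rapamycin group, 6.92 and 6.84 in the tamoxifen group, and 6.71 and 6.41 in the vehicle group. Flna was at 9.99 and 9.98 in the combination group, 10.35, 10.15 and 10.17 in the rapamycin group, 10.31 on both tamoxifen arrays, and 9.93 and 10.18 in the vehicle group.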

How the results depend on the processing

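The number of the 31 genes called for the combination against rapamycin, 2 as reported, was 4 among genes above the median level, 5 with only the groups compared, 1 with the replicate block, 1 without tamoxifen array 1 and rapamycin array 3, and 0 to 3 with 1 array left out. Calls over all genes moved as well, from 543 in the main fit (2.45% of all genes). They were 865 among genes above the median level, where fewer genes were tested, 1102 with only the groups compared and 260 with the replicate block. With 1 rapamycin array left out they ran between 153 and 262, and with 1 combination array left out they were fewer still. Leaving out an array of a pair assumes that the lone array varies like the other groups. Over 18 alternatives Actg2 was called in 15 (adjusted p 0.00358 to 0.111) and Des in 11 (0.0123 to 0.267). For the combination against vehicle 1 gene, Actg2, was called in the dim-gene filter and 1 with the trended robust prior. Over the genes tested in each fit 436 and 352 were called there, against 254 in the main fit. The median change against tamoxifen ran between -0.28 and -0.082 with 1 array left out, the lowest without combination array 1. With 1 array left out the median ran between -0.50 and -0.34 for the combination against rapamycin, and between 0.08 and 0.16 for tamoxifen against vehicle. For the 11 genes set out by role with the most detail (Actg2, Acta2, Myh11, Cnn1, Tagln, Lmod1, Des, Mylk, Myocd, Itga8 and Pgm5) the sign held in all 198 values for the combination against rapamycin, all 187 for the interaction and all 198 for rapamycin against vehicle, and in 184 of 198 for tamoxifen against vehicle. Many of these values could not differ from the main fit, so the counts overstate the number of separate checks. A difference of group means is the same with the trended robust prior, the dim-gene filter or only the groups compared. It is also the same when an array of another group is left out, or when a gene has 1 probe set to average. With the same limit, over all 31 genes the number below 0 ran from 29 to 31 for the combination against rapamycin and from 28 to 31 for the interaction. The number above 0 ran from 28 to 31 for rapamycin against vehicle. Repeated quantile normalization gave -0.031 for Mylk and -0.060 for Myocd, and centring gave -0.019 for Des and -0.0027 for Myocd. With 1 array left out the values there ran from -0.080 to 0.25 for Actg2, -0.15 to 0.38 for Cnn1, -0.22 to 0.22 for Des, -0.069 to 0.28 for Myh11, -0.076 to 0.18 for Mylk and -0.062 to 0.098 for Myocd. For the combination against vehicle, centring gave -0.012 for Pgm5, and the squamous covariate -0.069 for Acta2 and -0.0049 for Pgm5. With 1 array left out the values ran from -0.053 to 0.18 for Acta2, -0.33 to 0.018 for Myh11, -0.16 to 0.0046 for Myocd and -0.035 to 0.12 for Pgm5. For the combination against tamoxifen, quantile normalization gave 0.0006 for Lmod1, and leaving out tamoxifen array 1 and rapamycin array 3 gave 0.033 for Acta2 and 0.032 for Lmod1. With 1 array left out they ran from -0.16 to 0.033 for Acta2 and -0.17 to 0.054 for Lmod1. The split of the 31 genes above and below 0, 15 and 16 for the combination against vehicle, became 10 and 21 on centring and 7 and 24 with the squamous covariate, and that against tamoxifen, 6 and 25, became 11 and 20 on quantile normalization. The causes were not tested.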

Other observations

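The lists beside the muscle genes held a few values that no comparison above uses. Of the regulators of serum response factor, Fhl2, a LIM-domain coactivator, had an interaction of 0.62 (limma unadjusted p 0.0175), where 30 of the 31 muscle genes had values below 0, with a change of 0.27 for the combination against rapamycin and -0.35 for tamoxifen against vehicle. Fhl1, a related LIM protein of muscle, was at 8.41 and 8.09 in the combination group, 9.02, 8.86 and 8.71 in the rapamycin group, 8.33 and 8.55 in the tamoxifen group, and 8.75 and 8.55 in the vehicle group. Its change for the combination against rapamycin was -0.61 (limma adjusted p 0.102).

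Rgs5, a regulator of G-protein signalling that marks pericytes and vascular smooth muscle, was at 10.41 and 10.65 in the combination group, 11.18, 11.28 and 10.99 in the rapamycin group, 10.44 and 10.48 in the tamoxifen group, and 10.54 and 10.59 in the vehicle group. All 3 rapamycin arrays were above all others, and the change for the combination against rapamycin was -0.62 (limma adjusted p 0.0561). Mcam, an adhesion molecule of the vessel wall, gave -0.43 there and 0.57 for rapamycin against vehicle. Not all 8 mural genes were higher with rapamycin than with vehicle. In that comparison 5 were above 0 and 3 below (median 0.15, lowest -0.17), and none passed the test.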
